A study of Apis mellifera with 2 samples.

Results

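Hexamerins are storage proteins of insect hemolymph, the fluid that fills the open body cavity. The honey bee, Apis mellifera, has 4 hexamerin genes, Hex70a, HEX70b, Hex70c and Hex110, and all 4 were found by their protein identifiers among the 9935 genes measured. They comprise 5 of the 23471 coding sequences, 1 for each Hex70 gene and 2 for Hex110.

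Hexamerins belong to the hemocyanin superfamily, together with the arthropod oxygen carriers and the prophenoloxidases, but they bind no oxygen and have no known enzyme activity. The larval fat body, an organ that combines the roles of liver and adipose tissue, makes them while the insect feeds and secretes them into the hemolymph. They are taken up again before and during metamorphosis, when their amino acids serve to build adult tissues. In honey bees Hex70a protein has also been described in adult bees and in gonads, and the Hex110 protein is rich in glutamine. Juvenile hormone and ecdysteroids are known to act on the transcription of such genes.

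The study mapped surface molecules of hemocytes, the circulating blood cells, and its sequencing part holds 2 libraries of the subspecies carnica, with 1 library per stage. For the adult library, closed brood was held at 34 °C and bees, called nurse bees and less than 1 day old, were picked up at intervals of 24 h. For the larva library, workers in the fifth instar, aged 8 days, were bled as soon as their frames had left the hive. Both used polyadenylated RNA of hemocytes pelleted from 320 µL of hemolymph, with the plasma discarded, and the sources used here give no number of pooled insects. The adult library held 16880780 and the larva library 17657461 estimated counts. With 1 library per stage no difference has a replicate check, no p-value can be given, and all values compare these 2 libraries. Intervals are exact 95% intervals for counting error only.

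The label of the cells could be checked with a single gene, since 1 of 9 hemocyte marker names chosen for it had an entry in the gene table. A marker gene listed there under another name would have been missed. The matched gene, PPO, encodes the prophenoloxidase that hemocytes make for melanization and is itself a relative of the hexamerins. PPO stood at 5902 TPM in the adult library and 8011 TPM in the larva library, at rank 11 among all genes of the adult library and rank 9 of the larva library. TPM is a transcript level relative to library depth and coding length, so it allows levels of different genes to be set side by side.

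The 4 hexamerin genes were all lower in the adult library, and by very different amounts. HEX70b had 52 estimated counts in the adult library and 31828 in the larva library. This came to 1.17 TPM (interval 0.871 to 1.53) in the adult library and 592 TPM (585 to 598) in the larva library. Hex110 had 184 estimated counts in the adult library and 62612 in the larva library, which came to 2.66 TPM (2.29 to 3.08) in the adult library and 748 TPM (742 to 754) in the larva library. These were the most abundant hexamerins of the larva library, and neither was the most abundant of the adult one.

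Hex70c, whose product is known as a larval hemolymph protein, had 98 estimated counts in the adult library and 5232 in the larva library. Its level was 2.19 TPM (1.78 to 2.67) in the adult library and 96.7 TPM (94.1 to 99.4) in the larva library. Hex70a had 237 estimated counts in the adult library and 3951 in the larva library, which came to 5.31 TPM (4.65 to 6.03) in the adult library and 73.3 TPM (71.0 to 75.6) in the larva library. Hex70a was thus the most abundant hexamerin in the adult library and the least abundant in the larva library. No interval of a gene in the adult library reached that of the same gene in the larva library.

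**Figure D1:**
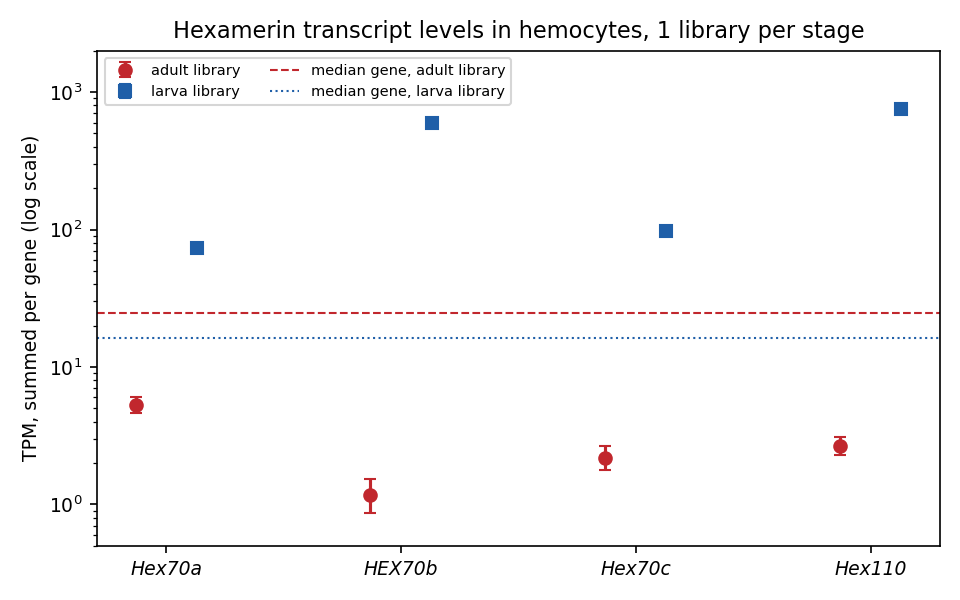
Levels of the 4 hexamerin genes in TPM summed per gene, on a log axis, in the adult library (circles) and the larva library (squares). Bars are exact 95% intervals for counting error, smaller than the symbol in the larva library. Lines mark the median of genes with TPM above 0, 24.5 in the adult and 16.2 in the larva library, and the 4 circles lie below the adult line and the 4 squares above the larva line.

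Among all 9935 genes ranked by TPM within a library, Hex110 was at rank 7520 in the adult library and rank 236 in the larva library. HEX70b was at rank 7985 in the adult library and rank 273 in the larva library. Hex70c was at rank 7635 in the adult and rank 1387 in the larva library, and Hex70a at rank 7007 in the adult and rank 1723 in the larva library. All 4 therefore lay in the lower part of the adult list, below the median gene with TPM above 0, which stood at 24.5 TPM in the adult library.

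Estimated counts per gene, scaled between libraries with TMM, gave the size of each difference. HEX70b was 740.1-fold lower in the adult library (569.6 to 1001), and Hex110 was 414-fold lower (359 to 483). Hex70c was 64.8-fold lower (53.4 to 80.4) and Hex70a 20.3-fold lower (17.8 to 23.3). On the authors' TPM, which use no such scaling, the larva library exceeded the adult library 507-fold for HEX70b, 281-fold for Hex110, 44.2-fold for Hex70c and 13.8-fold for Hex70a.

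A gene was counted as differing by size when it was at least 4-fold apart, with its whole interval beyond 4-fold, and had at least 10 CPM (counts relative to the scaled library total, not corrected for length) in the higher library. All 4 hexamerins met this on the side of lower in the adult library, against 2.73% of the 8798 genes that reached 10 counts when both libraries were added (240 genes). On the other side, 276 genes (3.14%) were higher in the adult library. Of the genes that differed by size, 53.5% were higher in the adult library with TMM, against 72.1% with plain totals and 79.8% with TPM. The median log2 fold of adult over larva was -7.36 for the hexamerins and 0.02 for all genes compared.

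Ordered from the most negative log2 fold, HEX70b was at rank 3 and Hex110 at rank 4 of 8798 genes, Hex70c at rank 30 and Hex70a at rank 74. HEX70b and Hex110 are also abundant in the larva library. Of the 142 genes with at least 1000 CPM there, 13 were lower in the adult library by size, and the 2 most negative log2 folds were those of HEX70b, at -9.53, and Hex110, at -8.69. Genes picked for a high level in the larva library lean to that side in any case, and the median log2 fold of these 142 was -1.32.

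**Figure D2:**
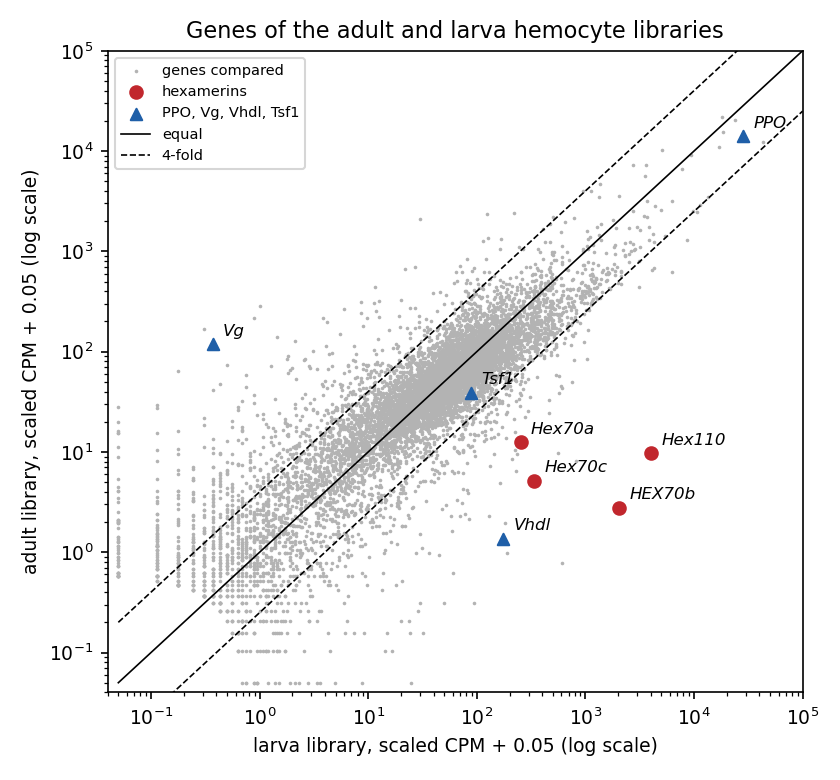
Scaled CPM of the 8798 genes compared, with the larva library on the horizontal and the adult library on the vertical log axis and 0.05 added to each value. The hexamerins (circles) lie below the lower dashed line, which marks 4-fold lower in the adult library, as does Vhdl, while Vg lies above the upper one and PPO and Tsf1 (triangles) lie between the lines.

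Because the 4 genes differed by unequal amounts, the make-up of hexamerin transcripts differed between the libraries. Hex70a made up 46.9% of the summed hexamerin TPM in the adult library and 4.86% in the larva library. HEX70b made up 10.3% in the adult library and 39.2% in the larva library. Hex110 contributed 23.5% in the adult library and 49.5% in the larva library, and Hex70c 19.3% in the adult library and 6.41% in the larva library. Hex110 and HEX70b thus made up most of the hexamerin TPM in the larva library, while Hex70a was the largest part in the adult library, on a far smaller total.

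The sum of the 4 genes was 11.3 TPM in the adult library and 1510 TPM in the larva library. In estimated counts it was 571, or 0.00338% of the adult library (0.00311 to 0.00367), and 103623, or 0.587% of the larva library (0.583 to 0.590). PPO exceeded the summed hexamerins 521-fold in the adult library and 5.31-fold in the larva library, both in TPM.

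Neighbours in the order of levels were compared per length within each library. In the adult library Hex70a stood 1.99-fold above Hex110 (1.64 to 2.43). Hex70c and Hex110 did not differ beyond counting error there, with a TPM ratio of 0.821 (0.636 to 1.05). HEX70b was below Hex70c at a ratio of 0.533 (0.373 to 0.754). In the larva library every step was beyond counting error. HEX70b stood at 0.791 of Hex110 (0.780 to 0.802), and it exceeded Hex70c 6.11-fold (5.94 to 6.30). Hex70a stood at 0.758 of Hex70c (0.727 to 0.790).

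The ratio between members compared across libraries needs no scaling of the libraries, since each scaling factor cancels. Over the 6 pairs, the widest contrast was between Hex70a and HEX70b, which lie next to each other on the chromosome. The ratio of Hex70a to HEX70b counts was 36.7-fold higher in the adult than in the larva library (27.0 to 50.7). For Hex70a over Hex110 it was 20.4-fold higher (16.7 to 24.9), for Hex70c over Hex110 6.37-fold (4.93 to 8.20), and for Hex70a over Hex70c 3.20-fold (2.51 to 4.11). For HEX70b over Hex70c the adult ratio was 0.0872 of the larval one (0.0610 to 0.123). The narrowest was HEX70b over Hex110, where the adult ratio was 0.556 of the larval one (0.400 to 0.760). Each of the 6 intervals left out 1.

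Adult counts came to 5.998% of larval counts for Hex70a, 1.87% for Hex70c, 0.294% for Hex110 and 0.163% for HEX70b. The 4 percentages differed from each other beyond counting error, as the ratios between pairs show. The lowest of them, that of HEX70b, rests on 52 adult counts.

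**Figure D3:**
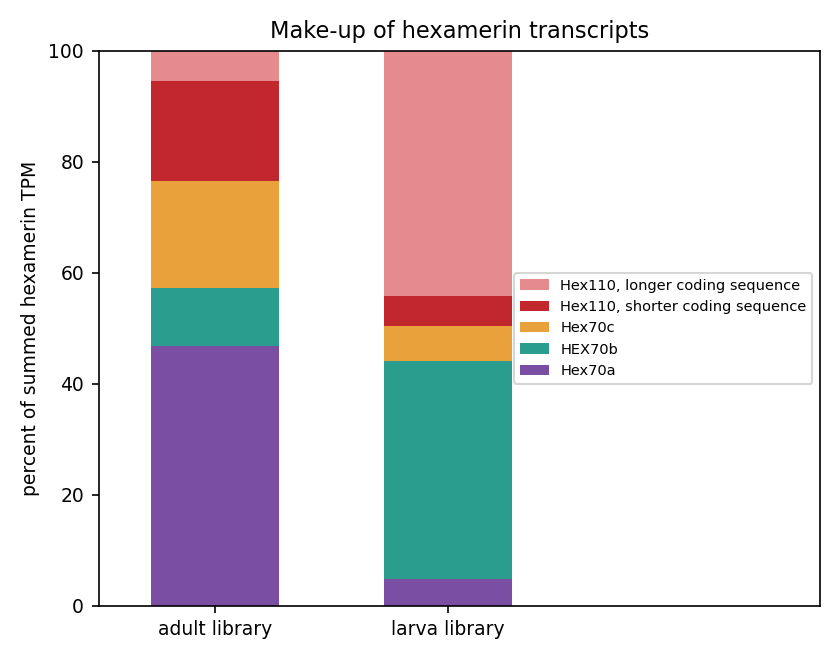
Percent of the summed hexamerin TPM that each coding sequence held, in the adult library (left bar) and the larva library (right bar). Hex70a takes the largest part of the adult bar, 46.9%, while HEX70b (39.2%) and the longer Hex110 coding sequence fill most of the larva bar.

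Hex110 is the single hexamerin gene with more than 1 coding sequence, and the balance of its sequences differed between libraries. They are 3036 and 3033 bases long, and how the sequences themselves differ was not examined. The longer had 42.1 of 184 estimated counts in the adult library, or 22.9%, and 55913 of 62612 in the larva library, or 89.3%. The shorter had 141.9 counts (77.1%) in the adult library and 6699 counts (10.7%) in the larva library. In TPM the longer stood at 0.609 in the adult and 668 in the larva library, and the shorter at 2.06 in the adult and 80.1 in the larva library. The longer was thus 1097-fold and the shorter 39.0-fold higher in the larva library, on the TPM scale.

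The change of leading coding sequence was set beside that of other genes. Of 1452 genes with 2 coding sequences and at least 100 counts in each library, Hex110 included, 90 (6.20%) had a different leading sequence in each library. The median change in share was 1.52 percentage points, against 66.4 for Hex110, and 5 genes, Hex110 among them, changed at least that much. Of the 480 genes whose coding sequences differed by at most 3 bases in length, 6 had a different leader (1.25%), Hex110 among them. Sequences of equal length were included, and whether any were identical was not checked. Identical ones cannot show a change of leader. The percentages and the median may therefore be too low to judge how rare the Hex110 change was. kallisto estimates the share of each sequence from reads that tell the sequences apart. How many such reads there were is not known, so no interval is given. The sum over both sequences is not touched by this split: it was within 0.001 of a whole number in each library. The counts of Hex70a, HEX70b and Hex70c were whole at the same tolerance.

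Hex70a, HEX70b and Hex70c follow each other directly in the order of protein-coding genes, at positions 618 to 620 of the 697 measured on their chromosome. Hex110 is on another chromosome, at position 495 of 809. In the RefSeq gene table of assembly Amel_HAv3.1 no gene lies between Hex70a and HEX70b, and a long noncoding RNA gene, LOC107964857, lies between HEX70b and Hex70c. The targets were coding sequences, so LOC107964857 was not analysed here. The files name no genome build, so positions are given by order.

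The genes around the hexamerins had log2 folds nearer to 0. On the Hex70a side, LOC726811, LOC726822 and LOC409353 had log2 folds of 0.60, -0.01 and -1.16. On the Hex70c side, LOC102653693 had 0 counts in both libraries, and LOC726874 and LOC412722 had log2 folds of -0.35 and -0.72. Before Hex110, LOC551707, LOC551683 and TpnCIIa, a troponin C gene of muscle, stood at -1.99, -0.51 and 1.51. After it, LOC725244, LOC100578540 and LOC408308 stood at -0.39, 0.11 and -0.92. With 10 genes taken on each side, none of the 18 compared around the Hex70 genes and none of the 20 around Hex110 differed by size, where the shares over all genes were 2.73% lower and 3.14% higher in the adult library. A count of 0 among so few genes is near those shares. Their log2 folds ran between -2.23 and 1.12 around the Hex70 genes and between -1.99 and 2.06 around Hex110, and the hexamerins' between -9.53 and -4.34. By TPM, LOC726822, LOC726874, LOC551683 and LOC725244 were higher in the adult library.

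**Figure D4:**
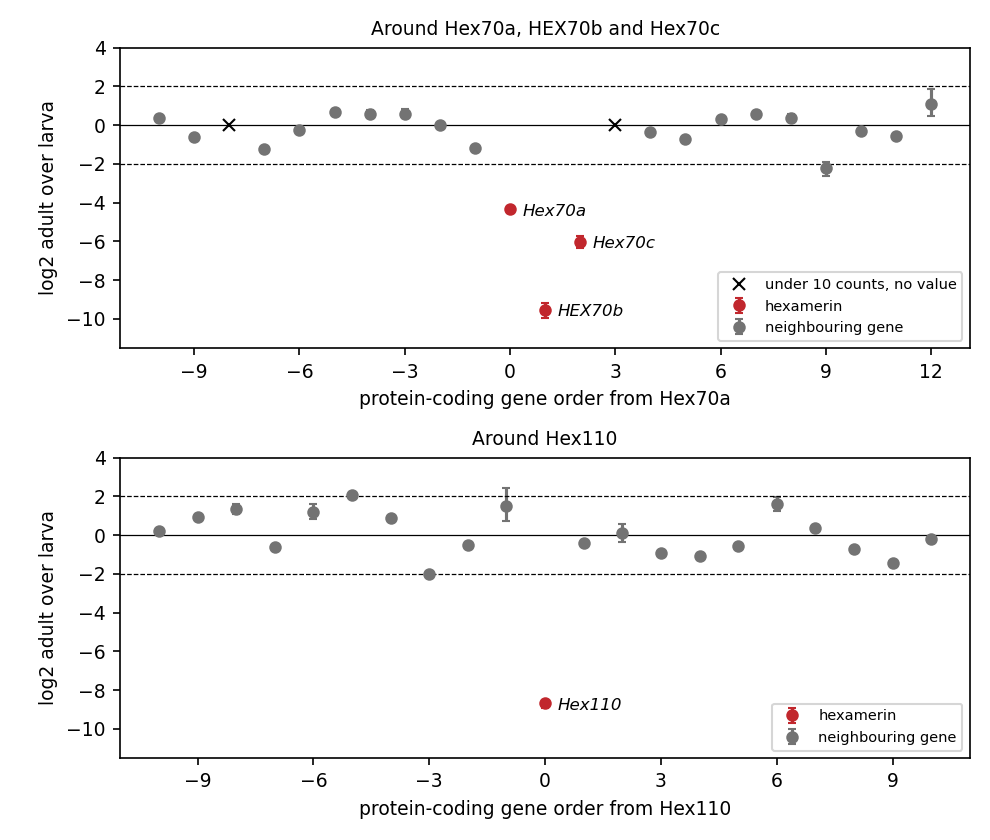
Log2 fold of adult over larva for the hexamerins (red) and the 10 protein-coding genes on each side (grey), in chromosome order counted from Hex70a (top) and from Hex110 (bottom), with exact 95% intervals for counting error. Crosses, drawn at 0, mark genes under 10 counts, which have no value. The hexamerins lie between -9.53 and -4.34, below all neighbours, and dashed lines mark 4-fold.

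Few other hemolymph storage and transport proteins could be matched, 3 of 10 names on the list. Vhdl encodes a lipoprotein of very high density that circulates in the hemolymph. It was on the side of the hexamerins, at 0.235 TPM in the adult library (25 counts) and 21.3 TPM in the larva library (2746 counts). Its log2 fold was -7.04. Tsf1, a transferrin that carries iron, stood at 15.9 TPM in the adult library and 24.6 TPM in the larva library, a log2 fold of -1.19, which is not a difference by size. Vg, which encodes the yolk precursor vitellogenin, went the other way, with 2280 adult counts and 5 larval counts (18.1 TPM in the adult library and 0.0327 TPM in the larva library). The log2 fold of Vg was 8.41. By size, 1 of the 3 was lower and 1 higher in the adult library, against 2.73% lower and 3.14% higher over all genes compared. Their median log2 fold of -1.19, against 0.02 over all genes compared, is the value of Tsf1 and describes no shared direction.

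Vhdl, Tsf1 and Vg were also the 3 of 5 fat body marker names that could be matched. Their summed level was 34.2 TPM in the adult library and 45.9 TPM in the larva library, and none was at 0 in either. Vhdl was on the side of the hexamerins and Vg on the other, and the part of fat body RNA in the hexamerin values was not tested. Fewer cells of a type and less RNA per cell cannot be told apart in such bulk samples. Of markers of other tissues, the 4 matched silk gland genes, of 5 names, summed to 10.98 TPM in the adult library and 40.9 TPM in the larva library. Of these, 1 was lower in the adult library by size, with a median log2 fold of -2.14, and none was at 0. Both names on the oenocyte list, Cyp4g11 and FAR1, were matched. They summed to 47.8 TPM in the adult library and 3.87 TPM in the larva library. Their log2 folds went opposite ways, at 5.59 and -0.68, so the median of 2.45 describes neither. By size 1 of them, Cyp4g11, was higher in the adult library, and neither was at 0. For cuticle, 6 of 8 names matched 7 genes, which summed to 602 TPM in the adult library and 172 TPM in the larva library. By size, CPF1 was lower and Apd-2 higher in the adult library. Apd-1, Apd-2 and Apd-3 had log2 folds between 6.75 and 9.29, and CPF1, CPF2 and CPR14 between -2.39 and 0.08. The median of 3.41 over the 6 compared falls between these groups and describes no gene. Apd-1, Apd-2, Apd-3 and apd-3 were at 0 in the larva library, and apd-3 was also at 0 in the adult one. Over all genes compared, 2.73% were lower and 3.14% higher by size and the median was 0.02, so in lists this short a single call carries little weight. The part of these tissues in the hexamerin values was not tested.

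Genes of ecdysteroid, juvenile hormone and insulin signalling were listed by 29 names, of which 13 were matched and compared. Whether any of them acts on the hexamerin genes was not tested. By size, 2 were lower and 1 was higher in the adult library, and the median log2 fold was -1.22. Over all genes compared, 2.73% were lower and 3.14% higher by size, with a median of 0.02. Br-c, the ecdysone-responsive transcription factor broad, was the lowest, at 0.187 TPM in the adult library (5 counts) and 43.4 TPM in the larva library (1466 counts), a log2 fold of -8.35. E74, another ecdysone-responsive factor, stood at 5.55 TPM in the adult and 30.4 TPM in the larva library (-2.91). Mblk-1, a transcription factor known from the mushroom bodies of the brain, was the single member higher by size, at 11.3 TPM in the adult and 0.216 TPM in the larva library (5.13).

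Of the ecdysone receptor subunits, Usp had a log2 fold of -1.80 and Ecr one of -0.21, while the TPM of Ecr was higher in the adult library (27.4 against 20.3). Err, an orphan nuclear receptor, had a log2 fold of -0.46 and was also higher in the adult library by TPM (27.7 against 26.1). Jhe, the esterase that breaks down juvenile hormone, had a log2 fold of -1.27. LOC724216, which the gene table gives the synonym jhamt, a juvenile hormone methyltransferase, had 4 adult and 36 larval counts (-3.31). JHBP-1, by its name a juvenile hormone binding protein, had 15 adult and 29 larval counts (-1.22). Kr-h1, a transcription factor that responds to juvenile hormone, stood at 5.76 TPM in the adult and 3.88 TPM in the larva library, and its log2 fold of 0.02 had an interval that held 0. E75, an ecdysone-responsive nuclear receptor, had a log2 fold of 0.42. The insulin-like peptide ILP-2 had a log2 fold of -1.38 and the insulin receptor InR-2 one of 0.39, with an interval that held 0.

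Genes most like each hexamerin were found by their distance in log2 CPM over the 2 libraries, which is a match of 2 values and no more. Hex70a was nearest to LOC100578727, at a distance of 0.31, with 198 adult and 3505 larval counts, and then to LOC410687, at 0.38, with 299 adult and 3478 larval counts. Hex70c was nearest to LOC727010, at 0.62, with 123 adult and 3621 larval counts, and LOC724468, at 0.97, with 160 adult and 3303 larval counts. HEX70b and Hex110 had no close match. HEX70b was nearest to LOC408579, at 2.05, with 155 adult and 12757 larval counts, and next to Hex110, at 2.06. Hex110 was nearest to HEX70b and then to LOC408579, at 2.31.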

How the data were processed

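The authors deposited estimated counts for RefSeq coding sequences. The submitters' processing notes name kallisto, and its version, index, strand setting and genome build were not stated in the sources used here. TPM computed by the authors stood beside the counts, per the file headers. All lengths are coding lengths, since the targets are coding sequences.

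Counts were summed per gene through protein identifiers (all 23471 matched, RefSeq table of Amel_HAv3.1) and rounded. TMM in edgeR 4.0.16 under R 4.3.3 scaled the libraries, with factors of 1.13 (adult) and 0.885 (larva). Log2 folds of adult over larva use a prior of 0.5 counts. Folds without logs use the same prior. Intervals are exact at 95%: Clopper-Pearson for count splits, Poisson for levels, binomial for shares, and the conditional odds ratio for ratios between pairs. TPM intervals are those of the counts on the TPM scale. PCR copies of a molecule count more than once, so intervals may be too narrow. The method was tested on simulated counts that held counting error only, so that test does not cover other sources of spread. DESeq2 1.42.0 size factors were 1 of the alternatives. Python 3.11.15, numpy 2.4.6, scipy 1.17.1, pandas 2.3.3 and matplotlib 3.10.9 did the rest.

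Members and lists were chosen with earlier results of these data known. Named genes are the 4 hexamerins, 3 protein-coding neighbours on each side, list members and the 2 nearest genes by level. Sequences are not shown here.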

Additional observations from a re-analysis of the deposited data

How the results depend on the processing

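No paired analysis was possible because each stage has 1 library. Under 8 alternatives each, no hexamerin changed sign. Log2 folds of adult over larva lay outside their counting intervals with plain totals for Hex70a (-3.99), Hex70c (-5.67) and Hex110 (-8.34). With the authors' TPM they were -3.79 for Hex70a, -8.99 for HEX70b, -5.47 for Hex70c and -8.13 for Hex110. With 1 coding sequence per gene, chosen by its counts, Hex110 was at -10.63, by construction, since this was its longer sequence. The median over all genes was 0.37 with plain totals and 0.55 with TPM.

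Genes higher and lower in the adult library by size came to 560 and 142 with TPM, 877 and 940 at 2-fold, and 119 and 88 at 8-fold, and stayed within 1.5 times of 276 and 240 under the other alternatives. Ranks by CPM, adult and then larva, were 6538 and 677 for Hex70a, 7632 and 55 for HEX70b, 7239 and 510 for Hex70c, and 6798 and 24 for Hex110. Ranks with 1 coding sequence per gene were 6711 and 1502 for Hex70a, 7830 and 247 for HEX70b, 7432 and 1197 for Hex70c, and 8167 and 234 for Hex110. The hexamerin share was 0.00113% of adult and 0.151% of larval TPM, and 0.621% of larval counts without mitochondrial genes. Apart from the Hex110 value and the size thresholds, the cause was not tested. Depth limits the adult values, which rest on 52 to 237 counts a gene.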
